A study of Mus musculus with 2 samples.

Results

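Oxidative phosphorylation is carried out by 4 respiratory complexes and an ATP synthase in the inner mitochondrial membrane, and the genes for their subunits were followed here across the hormone-producing cells of mouse pancreatic islets. A gene was a member if it had a row in both count tables and a symbol of 1 of these kinds: Ndufa, Ndufb, Ndufc, Ndufs or Ndufv with a number (complex I), Sdha to Sdhd (complex II), Uqcr (complex III), Cox4 to Cox8 (complex IV), Atp5 (complex V, the ATP synthase), or mt-Nd, mt-Co, mt-Atp or mt-Cytb (encoded in mitochondrial DNA). Symbols with Gm or -ps were left out. This gave 98 of the 33038 genes with a row in either table, 87 of them in the nuclear and 11 in the mitochondrial genome. The nuclear members comprised 40 genes of complex I, 4 of complex II, 8 of complex III, 18 of complex IV and 17 of complex V. The mitochondrial members comprised 6, 1, 3 and 1 genes of complexes I, III, IV and V. The symbols Ndufs6b, Ndufa11b, Ndufb4c and Cox6c2 belong to genes annotated as processed pseudogenes and were kept because they met the rule, while Ndufb1-ps, with 922 and 1074 transcripts in libraries 1 and 2, was among 10 names the -ps rule left out.

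RevGel-seq, in which each cell is tethered to a barcoded bead and lysed inside a reversible hydrogel, was applied to islets of male C57BL/6J mice aged 8 weeks and labelled as control. Both libraries were technical replicates of a single islet preparation with 10000 input cells each. Every SD and p-value below therefore measures preparation and sequencing error and the sampling of different cells, and no variation between animals. The tables held 735 and 748 cells with 15931154 and 17440292 transcripts counted by unique molecular identifiers (UMIs), no barcode was shared, and the median cell had 17340 and 18922 UMIs. Cells were grouped by the hormones that made up at least 1% of their UMIs, and the UMIs of Ins1, Ins2, Gcg, Sst and Ppy were then removed before any scaling.

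Cells with insulin alone (Ins cells) numbered 182 and 190 in libraries 1 and 2, cells with glucagon alone (Gcg cells) 182 and 174, cells with somatostatin alone (Sst cells) 35 and 23, and cells with pancreatic polypeptide alone (Ppy cells) 54 and 68. These 4 groups correspond by hormone to beta, alpha, delta and gamma cells. Among their other listed markers, Mafa was at 1162 and 1216 CPM (UMIs per 1000000 non-hormone UMIs, in libraries 1 and 2) in Ins cells. Hhex was at 316 and 479 in Sst cells. Tmem27, an alpha cell marker, had no row in either table, so its level was not measured. Irx2, also an alpha cell marker, was at 286 and 301 CPM in Gcg cells against 25.8 and 38.1 in Ppy cells. Without the hormones, the 8 listed beta cell markers summed to 55617 to 57159 CPM in Ins cells and to 1895 to 15541 in the other 6 sums. The alpha markers summed to 47014 to 48585 in Gcg cells against 302 to 2506, the gamma markers to 42727 to 55399 in Ppy cells against 630 to 13792, and the delta markers to 6604 to 6711 in Sst cells against 234 to 1241. Each list was thus highest in its own group, but within Sst cells the beta markers (15299 and 15541 CPM) and gamma markers (13444 and 13792) exceeded the delta markers. Most of this was Iapp, at 15053 and 15357 CPM, and Pyy, at 12679 and 13017, and its part in the results for Sst cells was not tested. The summed markers of endothelial cells (7 of 7 listed genes detected) ranged over the 8 sums from 32.4 to 580 CPM, those of leukocytes (10 of 10) from 59.9 to 355, and those of duct cells (5 of 6, Cftr at 0) from 9.60 to 285, the latter highest in Ppy cells. Those of acinar cells (7 of 7) ranged from 7.01 to 312, stellate cells (7 of 7) from 3.35 to 67.9, Schwann cells (3 of 4, Sox10 at 0) from 39.3 to 90.1 and red blood cells (4 of 4) from 2.93 to 6.74. An alternative left out cells in which endothelial, leukocyte, duct, acinar and stellate markers together made up at least 0.5% of UMIs. Schwann and red blood cell markers were not part of this filter. The number of members that differed between groups was then 32, 21, 50, 14, 25 and 14 in the 6 comparisons below, against 32, 22, 50, 15, 24 and 15 with all cells.

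The respiratory complexes pass electrons from NADH and succinate to oxygen and pump protons, and the ATP synthase uses the resulting gradient to make ATP. Complexes I, III, IV and V combine subunits encoded in both genomes, whereas complex II is wholly nuclear. In beta cells this ATP closes the potassium channels that hold the membrane at rest, which couples glucose oxidation to insulin release.

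The mitochondrial genome also lies in part as a copy in the nuclear genome, and some members share most of their sequence with that copy. On chromosome 1 of GRCm38, between positions 24611535 and 24616197, GENCODE lists the minus-strand pseudogenes Gm28439, Gm10222, Gm28438, Gm28437, Gm10925, Gm28661 and Gm29216, which match mt-Nd4, mt-Nd4l, mt-Nd3, mt-Co3, mt-Atp6, mt-Co2 and mt-Co1 at 98.8% to 100% identity over 294 to 876 bases. A sequenced fragment of 70 bases from mt-Co2, which encodes the copper-binding subunit 2 of complex IV, cannot be placed when every base is also in the copy. A stretch of 70 bases near the 3′ end of mt-Co2 and the same stretch of Gm28661 are shown in lower case because they hold no mismatch. The corresponding stretch at the start of mt-Nd3, a membrane subunit of complex I, differed from Gm28438 at the single base in capitals.
mt-Co2 chrM:7624-7693 (+): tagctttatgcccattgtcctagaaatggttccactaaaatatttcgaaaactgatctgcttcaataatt
Gm28661 chr1:24614885-24614954 (-): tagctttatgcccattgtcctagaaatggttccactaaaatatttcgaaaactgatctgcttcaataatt
mt-Nd3 chrM:9459-9528 (+): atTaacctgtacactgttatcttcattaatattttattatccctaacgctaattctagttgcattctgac
Gm28438 chr1:24613050-24613119 (-): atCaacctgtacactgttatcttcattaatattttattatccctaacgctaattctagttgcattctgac

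Over whole genes, the members with most of their sequence in the copy were those with the fewest UMIs. Of all 70-base windows in the gene, 99.5% of mt-Co2, 99.5% of mt-Atp6 (the proton-channel subunit of the ATP synthase), 99.9% of mt-Co3 (subunit 3 of complex IV) and 97.8% of mt-Nd3 were also in the chromosome 1 copy. These genes had 5, 2, 6 and 100 UMIs in both libraries together. By contrast, mt-Cytb, mt-Nd1, mt-Nd5, mt-Nd6 and mt-Nd2 had no such window and 41206, 26804, 23931, 23235 and 15363 UMIs. Between these lay mt-Co1, with 27.8% of its windows in the copy and 28154 UMIs, and mt-Nd4, with 61.7% and 31270 UMIs. The last 500 bases alone gave another picture for these, with 95.1% of windows shared in mt-Co1, which was abundant all the same, and 0 in mt-Nd4. The chromosome 1 pseudogenes themselves held 1 to 28 UMIs each. mt-Atp8 and mt-Nd4l had no row in either table. The mitochondrial totals below therefore rest on 7 genes and hold almost nothing from complex V or from subunits 2 and 3 of complex IV. How the authors' pipeline treated reads with several positions was not given in the sources used here, so its part in these low counts was not tested.

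**Figure D1:**
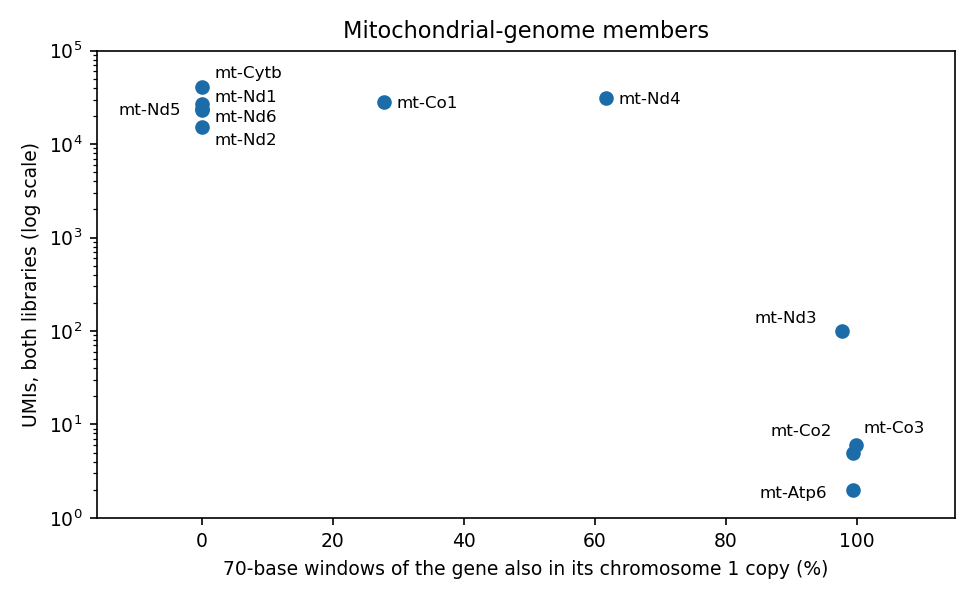
Each point is 1 mitochondrial-genome member; the x axis gives the percentage of its 70-base windows that also occur in its chromosome 1 copy and the y axis its UMIs in both libraries on a log scale. The 4 members with at least 97.8% of their windows in the copy lie at 100 UMIs or fewer, and the other 7 lie at 15363 or more. Whole genes are plotted, and in its last 500 bases mt-Co1 shared 95.1% of windows.

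Near copies also exist for nuclear members. A match at least 90% identical over at least 150 of the last 500 transcript bases was found in another annotated gene for 37 of the 87 nuclear members. None was recorded for the other 50, but these include the pseudogenes Cox6c2, Ndufa11b, Ndufb4c and Ndufs6b. Those were not searched, as only protein-coding transcripts of members were. Some matches were overlapping genes at the same place and not copies, such as Pdzd9 for Uqcrc2, Smim27 for Ndufb6 and Gm49356 for Ndufb9. For Atp5g2, 1 of 3 genes for the membrane ring of the ATP synthase, Gm10175 matched at 100% over 496 bases and held 304 UMIs, and Atp5g2 itself was too low to test. Ndufs5 matched BC002163 at 99.4% over 319 bases, and BC002163 held 1159 UMIs. Cox7c matched Gm10012 at 99.4% over 315 bases, with 16 UMIs in the copy. Levels of such members are uncertain, since reads may have been lost or divided. Among the genes named below as called higher in Ins cells than in each other group, this holds for Atp5g1, with Gm10039 at 99.7% over 386 bases and 1418 UMIs in the copy, and for Uqcr11, with Gm16418 at 98.8% over 171 bases and 1100 UMIs. Ndufb9 and Ndufb2 overlap the genes Gm49356 and Gm42420 on their own strand. Ndufb2 also had a 92.1% copy over 316 bases, Gm13186, with 35 UMIs, and 20.8% of its windows were in other genes, chiefly Braf on the other strand. Ndufa11 had a 94.8% copy, the member Ndufa11b, with 133 UMIs, and Uqcrq a 91.8% copy with 0. No such copy was found for Ndufv3, Cox7a2l and Cox6a2.

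The nuclear members as a whole took the largest share of non-hormone UMIs in Ins cells and the smallest in Ppy cells. The share was 1.21% and 1.25% in libraries 1 and 2 of Ins cells (1.23% ± 0.0301, SD, n = 2), 1.12% and 1.1% in Gcg cells (1.11% ± 0.0173), 1.12% and 1.09% in Sst cells (1.1% ± 0.0220) and 0.993% and 0.944% in Ppy cells (0.968% ± 0.0350). Ins cells lay above and Ppy cells below the other groups in both libraries, while Gcg and Sst cells overlapped. On the log2 scale the ratio of Ins cells to Gcg cells was 0.15 ± 0.058, to Sst cells 0.15 ± 0.064 and to Ppy cells 0.34 ± 0.088 (mean ± SD of the 2 within-library ratios). With the hormone UMIs kept in the total, of which Ins cells carried 37.8% and 41.4% and Sst cells 9.56% and 10.1%, the ratio turned to −0.17 against Gcg cells and −0.43 against Sst cells, and stayed at 0.25 against Ppy cells.

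The mitochondrial members gave another order, with Ppy cells highest and Sst cells lowest. Their share was 0.682% and 0.642% in Ins cells (0.662% ± 0.0278), 0.736% and 0.756% in Gcg cells (0.746% ± 0.0137), 0.464% and 0.483% in Sst cells (0.473% ± 0.0136) and 0.997% and 0.985% in Ppy cells (0.991% ± 0.00808). No 2 of the 4 groups overlapped. The log2 ratio of Ins cells to Gcg cells was −0.17 ± 0.087, to Sst cells 0.48 ± 0.102 and to Ppy cells −0.58 ± 0.049. With hormone UMIs kept, the ratio to Sst cells turned to −0.09 ± 0.155, within the spread between the libraries. With 2 libraries in each group an exact permutation test cannot give a p below 0.333, so none was computed for the shares.

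Set against each other, the parts gave 0.996 and 0.958 nuclear UMIs per mitochondrial UMI in Ppy cells, 1.52 and 1.45 in Gcg cells, 1.77 and 1.94 in Ins cells and 2.41 and 2.25 in Sst cells. The 4 groups did not overlap in this ratio, which does not depend on the removal of hormones. Ppy cells were thus the group with the fewest nuclear UMIs per counted mitochondrial UMI. Since several mitochondrial genes were hardly counted, the ratio ranks the groups and does not give the true balance of transcripts. Ppy cells were also the most deeply counted, with a median of 28785 and 30340 UMIs per cell against 13123 and 13692 in Sst cells. The part of depth in the mitochondrial share was not tested between groups. Within a group, the share per cell followed the depth of the cell with a Spearman's rho of 0.298 and 0.337 in Ins cells, but −0.0865 and −0.161 in Ppy cells, as a description over the cells of each library.

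**Figure D2:**
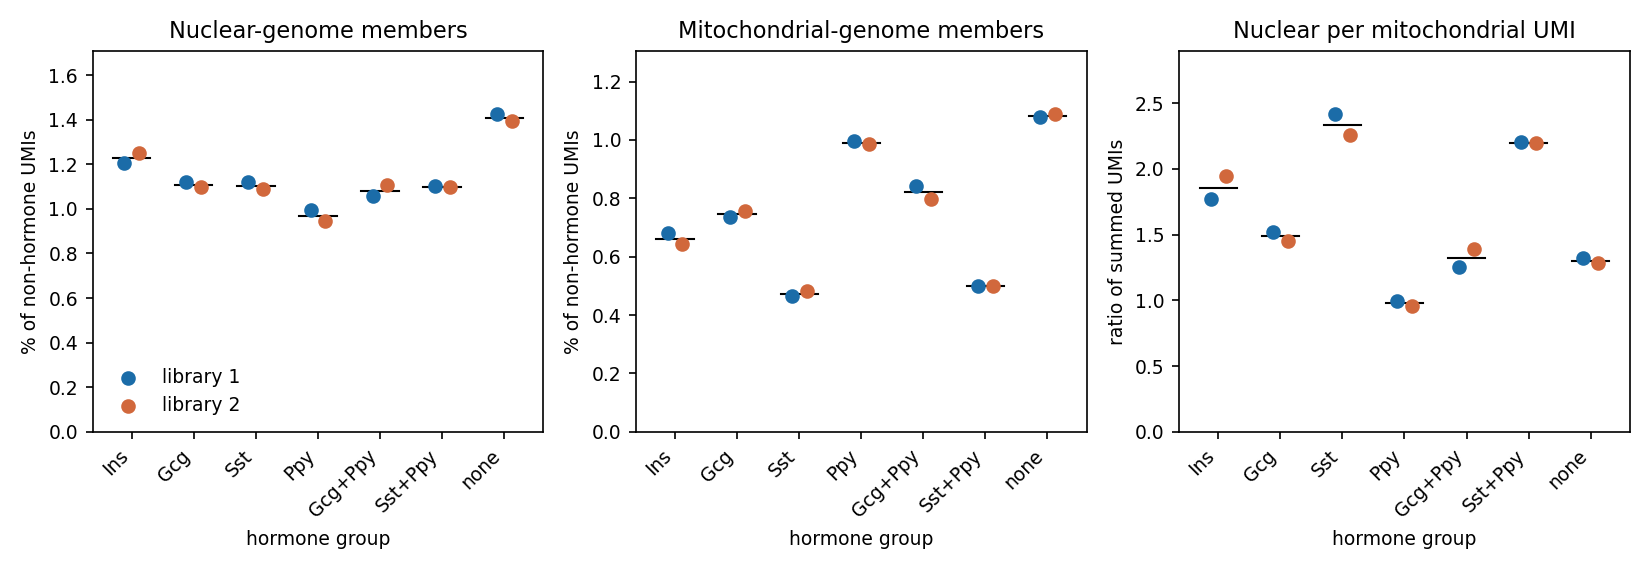
Points show each library and black lines the mean of both libraries for 7 hormone groups; the y axes give the percentage of non-hormone UMIs from nuclear and from mitochondrial members and, on the right, the ratio of nuclear to mitochondrial UMIs. Ppy cells combine the lowest nuclear share of the single-hormone groups (0.968%) with the highest mitochondrial share (0.991%).

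The cells behind these sums varied widely in the mitochondrial share and little in the nuclear share. In library 1 the middle 50% of Ins cells ran from 1.05% to 1.42% for the nuclear and from 0.293% to 0.779% for the mitochondrial members. The median Ins cell had 0.509% and 0.464% mitochondrial UMIs in libraries 1 and 2, below the summed share, whereas the median Ppy cell had 0.988% and 0.955%. Taking median cells in place of sums gave log2 ratios of −0.42 for Ins to Gcg cells, 0.13 ± 0.127 for Ins to Sst cells and −1.0 for Ins to Ppy cells, so that the higher share of Ins over Sst cells was within about the spread of the libraries. Across cells of the 4 groups, the nuclear and mitochondrial shares ran in opposite directions, with a Spearman's rho of −0.451 and −0.453 over 182 and 190 Ins cells and −0.343 and −0.378 over 182 and 174 Gcg cells. It was −0.170 and −0.489 over 35 and 23 Sst cells and −0.342 and −0.321 over 54 and 68 Ppy cells. Over the 91 and 92 cells with no hormone at 1% the shares ran together, with 0.435 and 0.443. The shares have the same total in the same cell, so these are descriptions without a test.

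**Figure D3:**
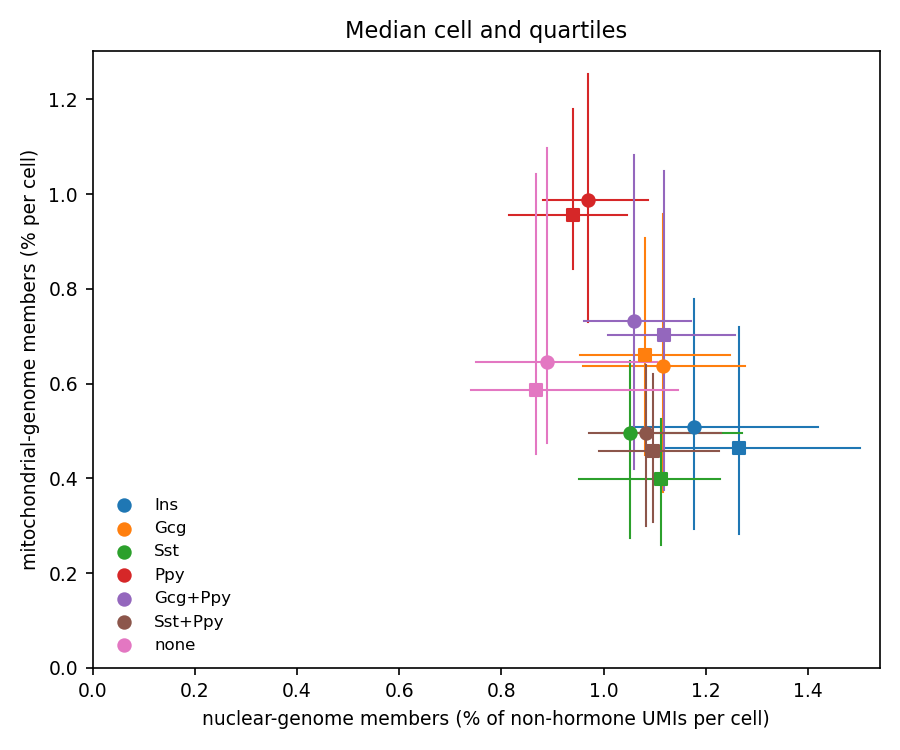
Points are the median cell of each group, with circles for library 1 and squares for library 2, and lines span the middle 50% of cells; both axes are percentages of non-hormone UMIs per cell. Median Ppy cells lie at 0.988% and 0.955% mitochondrial UMIs, and median Ins cells at 0.509% and 0.464%.

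For single genes, UMIs were summed per library and group and tested with edgeR's quasi-likelihood test, and a gene was called at a Benjamini-Hochberg adjusted p under 0.05 over all 13977 genes tested. Of the 98 members, 88 were tested, 80 nuclear and 8 mitochondrial. Those too low to test were Atp5g2, Cox4i2, Cox6b2, Cox7a1, Cox7b2, Cox8b, Ndufa4l2, mt-Atp6, mt-Co2 and mt-Co3. Tested members averaged 124 CPM at the median against 27.5 for all tested genes, and a high level makes a small change easier to call, so the shares of all genes called are given as a background and not as a match. Levels below are CPM in libraries 1 and 2, and fold changes are log2 values scaled by TMM with their standard error. Comparisons that share a group are not independent of each other. With 2 sums per group many calls rested on a single sum: of 183 calls of members, 87 stayed below the threshold in every fit that left out 1 sum (the lone sum of that group was then assumed to vary like the others). Many of the calls that did not are named below with the sum left out, but not every lost call is listed. The word "kept" below means called in all of these fits.

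Among the mitochondrial genes, 7 of the 8 tested differed in the same direction in 3 comparisons that involved Sst cells. All 7 calls were kept in Sst against Ppy and in Gcg against Sst cells. Against Ppy cells, Sst cells were lower in 7 and higher in none, with a median log2 fold change of −1.15 over the 8 genes and −0.03 over all genes. Gcg cells were higher than Sst cells in 7, with a median of 0.79 against 0.04 over all genes, and Ins cells were higher than Sst cells in 7, with a median of 0.55 against 0.02. In each of the 3 the remaining gene was mt-Nd3, which had 4.06 to 6.7 CPM in the 8 sums and was never called. All these calls rest on summed cells. For median cells the log2 ratio of the mitochondrial shares of Ins to Sst cells was 0.13 ± 0.127. The call of mt-Co1 in Ins over Sst cells (0.37) was lost without Ins library 1 (0.29, adjusted p = 0.105, edgeR) and that of mt-Nd2 (0.50) without Sst library 1 (0.46, adjusted p = 0.0608, edgeR).

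The widest range was that of mt-Nd1, a membrane subunit of complex I next to the quinone site. It was at 782 and 686 CPM in Ins cells, 1142 and 1260 in Gcg cells, 497 and 577 in Sst cells and 1416 and 1468 in Ppy cells. No group overlapped another. Sst cells were lower than Ppy cells by 1.54 on the log2 scale (−1.54 ± 0.114, adjusted p = 4.76e-11, edgeR) and Ins cells were lower than Gcg cells (−0.67 ± 0.093, adjusted p = 1.32e-06, edgeR). Gcg and Ppy cells were not called different in mt-Nd1, at −0.25.

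In Ppy cells, 4 members (4.55% of those tested), all mitochondrial, were higher than in each of the other 3 groups, beside 1.57% of all genes, namely mt-Co1, mt-Cytb, mt-Nd4 and mt-Nd5. mt-Co1, the subunit of complex IV that binds the oxygen-reducing centre, was at 1386 and 1458 CPM in Ppy cells, 977 and 1038 in Gcg cells, 936 and 801 in Ins cells and 756 and 731 in Sst cells. mt-Cytb, the cytochrome b of complex III, was at 2128 and 2063 CPM in Ppy cells and at 1604 and 1586, 1444 and 1493, and 1173 and 1180 in Ins, Gcg and Sst cells. mt-Nd4, a proton-pumping subunit of complex I, was at 1783 and 1726 CPM in Ppy cells against 1020 and 973 in Ins cells. Its values were 1215 and 1222 in Gcg and 747 and 841 in Sst cells. mt-Nd5, another proton-pumping subunit, was at 1295 and 1285 CPM in Ppy cells, 1017 and 942 in Gcg cells, 891 and 873 in Ins cells and 569 and 553 in Sst cells. In each of the 4 genes both Ppy sums stood above the other 6 sums. Their log2 fold changes of Ins against Ppy cells were −0.66, −0.34, −0.76 and −0.49 for mt-Co1, mt-Cytb, mt-Nd4 and mt-Nd5. Gcg against Ppy cells gave −0.48, −0.50, −0.51 and −0.38 in the same order, of which mt-Nd5 was lost without Gcg library 2 (−0.33, adjusted p = 0.104, edgeR).

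Ins and Gcg cells differed in a mixed way in these genes. mt-Nd1 and mt-Nd2 were lower in Ins cells (−0.67 and −0.47), and mt-Nd4 passed at −0.25 ± 0.088. mt-Nd6, encoded on the other strand of the mitochondrial DNA, was higher in Ins cells, at 1097 and 1073 CPM against 903 and 966 (0.26 ± 0.0871, adjusted p = 0.0216, edgeR). The calls of mt-Nd4 and mt-Nd6 were both lost when either library of either group was left out, with log2 fold changes from −0.26 to −0.24 for mt-Nd4 and from 0.21 to 0.30 for mt-Nd6, while those of mt-Nd1 and mt-Nd2 were kept. mt-Nd6 (chrM:13552-14070) overlaps the end of mt-Nd5 (chrM:11742-13565), and as it was not given whether counting used strand, reads of mt-Nd6 and of RNA antisense to it cannot be told apart. The call of mt-Nd6 in Gcg against Ppy cells (−0.31) was lost without Gcg library 1, Gcg library 2 or Ppy library 1 (adjusted p = 0.0717 to 0.209, edgeR). The mitochondrial ribosomal RNA mt-Rnr2, no member, was at 604 and 529 CPM in Ins cells, 864 and 835 in Gcg cells, 530 and 261 in Sst cells and 1124 and 965 in Ppy cells.

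Between Ins and Gcg cells, 25 of the 88 members (28.4%) were higher in Ins cells, where 17.9% of all tested genes were called in that direction, and 7 (7.95%) were higher in Gcg cells, where 17.3% of all genes were. Of the former 24 were nuclear, and of the latter 4. The median log2 fold change was 0.17 over the members and −0.02 over all genes. By complex, 14 of 39 tested nuclear genes of complex I were higher in Ins cells and 2 lower, 2 of 4 of complex II were higher, 3 of 8 of complex III were higher and 1 lower, 4 of 13 of complex IV were higher, and 1 of 16 of complex V was higher and 1 lower. Without Gcg library 2 the members called fell to 15 from 32. Of the 25, 10 were kept, and of the 7, 4 were kept, namely Atp5c1, Ndufa6, mt-Nd1 and mt-Nd2.

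Between Ins and Ppy cells, 41 members (46.6%) were higher in Ins cells against 15.1% of all genes, and 9 (10.2%) were higher in Ppy cells against 14.3%. All 41 were nuclear. Of the 9 higher in Ppy cells, 6 were mitochondrial and the nuclear ones were Sdhd, Uqcrfs1 and Atp5c1. The median was 0.39 over the nuclear and −0.56 over the mitochondrial members, and 0.01 over all genes. Complex I contributed 21 of 39 tested nuclear genes, complex IV 8 of 13 and complex V 9 of 16. Of the 41, 21 were kept, and of the 9, 7, which were Atp5c1 and the 6 mitochondrial genes.

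Between Ins and Sst cells, 22 members (25%) were higher in Ins cells against 10.4% of all genes, 15 of them nuclear, and 0 were higher in Sst cells against 9.19% (edgeR; 0 also at an unadjusted p under 0.05 and by DESeq2). Of the 22, 11 were kept, 6 of them nuclear. The median was 0.26 over the members and 0.02 over all genes. Unscaled totals, with no TMM factors, lowered the median of all genes in this comparison from 0.02 to −0.13 and gave 15 members higher and 1 lower.

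**Figure D4:**
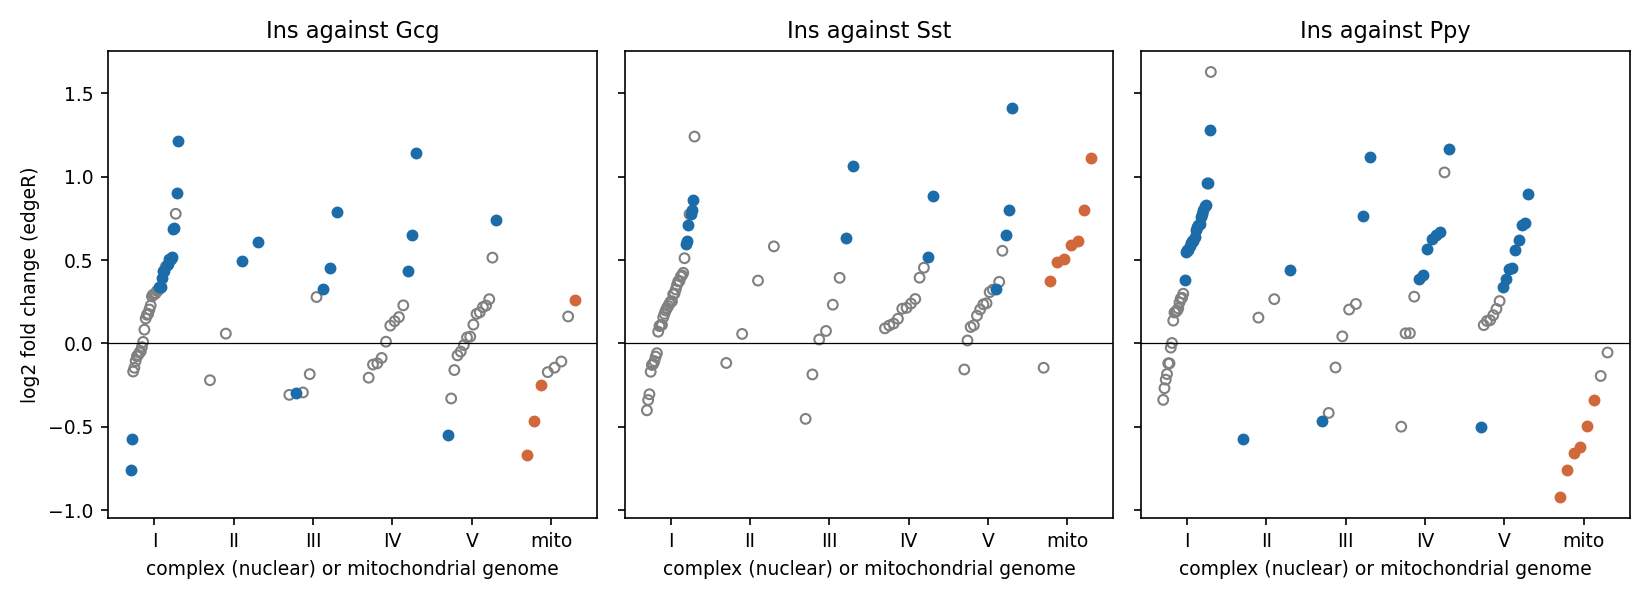
Each point is 1 tested member except Cox6a2, placed by complex for nuclear genes and in the last column for mitochondrial genes; the y axis is the edgeR log2 fold change of Ins cells over Gcg, Sst and Ppy cells, and filled points passed an adjusted p of 0.05. In the panel against Ppy cells the filled nuclear points lie above 0 except for 3 (Sdhd, Uqcrfs1 and Atp5c1), and all 6 filled mitochondrial points lie below 0.

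Gcg, Sst and Ppy cells were also compared with each other. Gcg cells were higher than Sst cells in 12 members (13.6%), against 8.08% of all genes, and lower in 3 (3.41%), against 8.7%, and 7 of the 12 were mitochondrial. Gcg cells were higher than Ppy cells in 19 (21.6%), all nuclear, against 8.35% of all genes, and lower in 5 (5.68%), all mitochondrial, against 8.84%. Sst cells were higher than Ppy cells in 5 (5.68%), against 6.85% of all genes, and lower in 10 (11.4%), against 6.58%. With no TMM factors the last comparison gave 9 higher and 9 lower. The count for Gcg against Ppy cells, 24 in all, fell to 8 and 10 without Gcg library 1 or 2 and to 15 and 10 without Ppy library 1 or 2. Of the 19 nuclear members only Atp5e and Cox4i1 were kept, and of those between Gcg and Sst or Sst and Ppy cells only Atp5e, Ndufa4, Sdhd and Uqcrfs1.

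In 9 members (10.2% of those tested), all nuclear, Ins cells were called higher than each of the other 3 groups, beside 5.58% of all genes. They were Ndufa11, Ndufb2, Ndufb9 and Ndufv3 of complex I, Uqcr11 and Uqcrq of complex III, Cox6a2 and Cox7a2l of complex IV, and Atp5g1 of complex V. Apart from Cox6a2 and Atp5g1, which are isoforms, and Cox7a2l, all are accessory subunits that do not themselves carry electrons. Cox7a2l has been described as a factor for supercomplexes of complexes III and IV. Whether it acts so in C57BL/6J mice was not tested. Ndufa11, Ndufv3, Uqcrq, Cox6a2 and Cox7a2l kept all 3 calls whichever sum was left out. Atp5g1 kept its call over Gcg cells, and Uqcr11, Ndufb2 and Ndufb9 theirs over Ppy cells, while the other calls of these 4 each depended on at least 1 sum, as given with their values below.

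Cox6a2 separated Ins cells from the rest more than any other member. It encodes the subunit VIa isoform of complex IV known from heart and skeletal muscle, and lies on chromosome 7 (GRCm38 chr7:128205435-128206387, minus strand), with Itgad on the other strand. It was at 136 and 163 CPM in Ins cells, 3.81 and 1.42 in Gcg cells and 0 in both libraries of Sst and of Ppy cells. Ins cells with a UMI made up 45.6% and 57.9% (exact 95% intervals 38.2% to 53.1% and 50.5% to 65.0%, for counting error only), and Gcg cells 3.85% and 1.15%. None of 54 and 68 Ppy cells had one, which allows a share of up to 5.56% and 4.41% by a limit of 3 cells (exact 95% upper bounds 6.60% and 5.28%), and none of 35 and 23 Sst cells, which allows up to 8.57% and 13.0% (10% and 14.8%). The log2 fold change over Gcg cells was 5.86 ± 0.273 (adjusted p = 1.90e-15, edgeR). Against a floor of 3 UMIs over the group, Ins cells were at least 37.3-fold higher than Sst cells and at least 142-fold higher than Ppy cells. Gcg cells were also called higher than Ppy cells, on 10 and 4 UMIs, and this call was lost without Gcg library 1, Ppy library 1 or Ppy library 2 (adjusted p = 0.0993 to 0.209, edgeR).

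Its ubiquitous counterpart Cox6a1 was not called in any comparison. It was at 258 and 230 CPM in Ins cells, 228 and 230 in Gcg cells, 240 and 251 in Sst cells and 212 and 206 in Ppy cells, with log2 fold changes from 0.01 to 0.28. A UMI was seen in 91.2% and 88.4% of Ins cells and 92.6% and 95.6% of Ppy cells. Cells that carried somatostatin beside insulin, 14 and 8 in number, had Cox6a2 at 59.1 and 66.8 CPM. Cells with both glucagon and pancreatic polypeptide had 0.896 and 4.17, beside 3.14 and 0 in cells with no hormone at 1%.

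**Figure D5:**
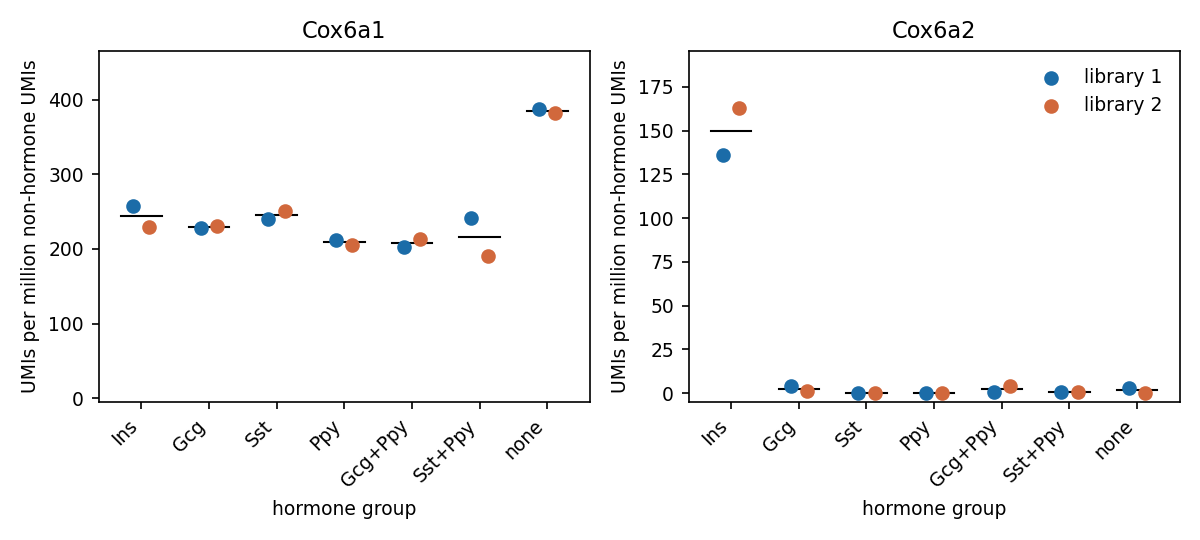
Points give Cox6a1 and Cox6a2 in CPM (UMIs per 1000000 non-hormone UMIs) for each library, and black lines the mean, in 7 hormone groups. Cox6a2 lies at 136 and 163 in Ins cells and at 4.17 or below elsewhere, while Cox6a1 lies between 190 and 388 in every group.

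The other families of isoforms each held a gene too low to test. In the Cox7a and Atp5g families more than a single gene was tested, so no single dominant gene is shown for them. Cox4i1, the general isoform of subunit IV, was at 365 and 357 CPM in Ppy cells and higher in Gcg cells (531 and 491, log2 fold change 0.51 ± 0.097) and Ins cells (457 and 452, 0.39 ± 0.0977). The Gcg call was kept, and the Ins call was lost without Ppy library 2 (0.35, adjusted p = 0.0535, edgeR). Cox4i2, its isoform of lung and of oxygen-sensing cells, was at 0 in all sums except 0.859 CPM in Ppy library 1. Cox7a2l was at 462 and 534 CPM in Ins cells, 329 and 324 in Gcg cells, 325 and 265 in Sst cells and 241 and 223 in Ppy cells, an order in which Gcg and Sst cells overlapped. It exceeded Ppy cells in Ins cells by 1.16 ± 0.112 (adjusted p = 2.69e-09, edgeR). Cox7a2, the general isoform of subunit VIIa, was higher in Ins than in Ppy cells (0.62), and Cox7a1, its muscle isoform, had 4.30 CPM or less in the 8 sums. Cox6b1 and Cox8a were not called anywhere, and Cox6b2 and Cox8b stayed at 2.35 and 2.20 CPM or less. Of the genes for the c ring of the ATP synthase, Atp5g1 was at 105 and 114 CPM in Ins cells against 64.8 to 87.2 in the other 6 sums (0.74, 0.65 and 0.62 over Gcg, Sst and Ppy cells). Its call over Sst cells was lost without Ins library 2 (0.59, adjusted p = 0.104, edgeR) or Sst library 1 (0.49, adjusted p = 0.307, edgeR), and that over Ppy cells without Ppy library 2 (0.50, adjusted p = 0.0836, edgeR). Atp5g3 was called higher in Ins than in Ppy cells alone (0.38 ± 0.108), which was lost without Ppy library 2 (0.29, adjusted p = 0.158, edgeR). Cox7a2l in Gcg over Ppy cells (0.51) was lost without Ppy library 2 (0.43, adjusted p = 0.0617, edgeR). Cox7a2 in Gcg over Ppy cells (0.40) was lost without any 1 of the 4 sums (0.37 to 0.41, adjusted p = 0.106 to 0.194, edgeR).

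Ndufa4, which is counted by name with complex I but is found in complex IV, was the only nuclear member called between Ins and Gcg, Ins and Ppy, Gcg and Sst, and Sst and Ppy cells, and all 4 calls were kept. It was at 129 and 147 CPM in Ins cells and 134 and 124 in Sst cells, against 55.2 and 66.9 in Gcg cells and 61.0 and 57.5 in Ppy cells. Ins and Sst cells overlapped, as did Gcg and Ppy cells. Ins cells were higher than Gcg cells by 1.21 ± 0.139 (adjusted p = 4.96e-08, edgeR) and than Ppy cells by 1.28 ± 0.156, and Sst cells were higher than Gcg and Ppy cells by 0.98 and 1.04. Its isoform Ndufa4l2, known from vascular cells and low oxygen, was at 0 in all 8 sums.

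Among the other accessory subunits of complex I, Ndufa11 was at 149 and 170 CPM in Ins cells, 89.5 and 86.1 in Gcg cells, 110 and 93.9 in Sst cells and 98.0 and 74.5 in Ppy cells. Both Ins sums stood above the other 6, and its log2 fold changes were 0.90 ± 0.134, 0.78 ± 0.196 and 0.96 ± 0.148 over these 3 groups. Ndufv3, on the NADH-oxidising arm, was at 233 and 270 CPM in Ins cells and between 134 and 181 elsewhere (0.70, 0.86 and 0.83). Ndufb9 was at 149 and 138 CPM in Ins cells against 67.0 to 119 (0.48, 0.71 and 0.76), and Ndufb2 at 147 and 145 against 78.6 to 125 (0.34, 0.61 and 0.82). Ndufb9 lost its call over Gcg cells without Gcg library 2 (0.42, adjusted p = 0.105, edgeR) and over Sst cells without Sst library 2 (0.45, adjusted p = 0.175, edgeR). Ndufb2 lost its call over Gcg cells without any 1 of the 4 sums (0.26 to 0.41, adjusted p = 0.0848 to 0.315, edgeR) and over Sst cells without Sst library 1 (0.80, adjusted p = 0.0519, edgeR) or Sst library 2 (0.53, adjusted p = 0.116, edgeR). Ndufb8, a subunit of the membrane arm, was higher in Ins than in Gcg cells (0.69), and its call over Ppy cells (0.70) was lost without Ppy library 2 (0.36, adjusted p = 0.161, edgeR). Ndufa2, Ndufa7, Ndufb7, Ndufb10 and Ndufc2, accessory subunits as well, kept their calls over Ppy cells.

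Ndufa6 went the other way and was highest in Gcg cells. Its 278 and 272 CPM there stood above 147 and 170 in Ins cells, 178 and 204 in Sst cells and 193 and 203 in Ppy cells. Gcg cells were higher than Ins cells by 0.76 (Ins against Gcg −0.76 ± 0.110, adjusted p = 2.66e-06, edgeR), than Sst cells by 0.65 and than Ppy cells by 0.49. The first of these calls was kept, the second was lost without Sst library 1 (0.55, adjusted p = 0.0763, edgeR) and the third without Gcg library 1 (0.47, adjusted p = 0.0551, edgeR). Ndufb6 was also called higher in Gcg than in Ins cells (−0.57), but not without Ins library 1 (−0.48, adjusted p = 0.141, edgeR) or Gcg library 2 (−0.37, adjusted p = 0.325, edgeR).

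The nuclear core subunits of complex I, several of which carry the flavin and iron-sulphur centres, were mixed. Ndufv1, the flavin-binding NADH dehydrogenase subunit, was at 167 and 167 CPM in Ins cells, 121 and 127 in Gcg cells, 145 and 141 in Sst cells and 102 and 79.2 in Ppy cells. No group overlapped another, and Ins cells were higher than Ppy cells by 0.96 ± 0.139 (adjusted p = 3.53e-06, edgeR) and than Gcg cells by 0.47, the latter lost without Gcg library 1 (0.44, adjusted p = 0.0612, edgeR). Ndufs8 was called in Ins over Gcg cells (0.44), but not in 5 of the 8 cases (down to 0.19 without Gcg library 2, adjusted p = 0.568, edgeR), and in Ins over Ppy cells (0.60), but not without Ins library 2, Ppy library 1 or Ppy library 2 (0.52 to 0.69, adjusted p = 0.0703 to 0.117, edgeR). Ndufs3 was called in Ins over Ppy cells (0.62), but not without Ins library 1 (0.50, adjusted p = 0.105, edgeR) or Ppy library 2 (0.61, adjusted p = 0.0875, edgeR), while Ndufs1 and Ndufs7 were called nowhere. The calls of Ndufv2 and Ndufb7 in Sst over Ppy cells (0.52 and 0.51), and of Ndufv2 in Sst over Gcg cells (−0.48 for Gcg against Sst), were lost whichever of the 8 sums was left out, with values from 0.45 to 0.52, 0.32 to 0.67 and −0.50 to −0.42. Those of Ndufv1 (0.59) and Ndufa8 (0.64) in Sst over Ppy cells were lost in 7 and 5 of the 8 cases, down to 0.34 and 0.43 without Ppy library 2.

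Complex II showed its 2 membrane anchors on opposite sides. Sdhc was at 145 and 144 CPM in Ins cells, 97.9 and 96.7 in Gcg cells, 123 and 124 in Sst cells and 99.7 and 119 in Ppy cells, higher in Ins than in Gcg cells (0.61 ± 0.123). Its call over Ppy cells (0.44 ± 0.132) was lost without Ins library 2 (0.43, adjusted p = 0.0539, edgeR) or Ppy library 1 (0.33, adjusted p = 0.144, edgeR). Sdhd was at 136 and 105 CPM in Ppy cells, 94.1 and 90.3 in Gcg cells, 84.1 and 69.1 in Ins cells and 61.5 and 50.3 in Sst cells, the same order as mt-Nd1. It was lower in Sst than in Ppy cells by 1.16 on the log2 scale (−1.16 ± 0.244, adjusted p = 0.00129, edgeR). Its call in Ins against Ppy cells (−0.57) was lost without Ins library 2 (−0.47, adjusted p = 0.0637, edgeR) or Ppy library 1 (−0.40, adjusted p = 0.124, edgeR), and that in Gcg over Sst cells (0.80) without Gcg library 1, Sst library 1 or Sst library 2 (adjusted p = 0.071 to 0.107, edgeR). Of the catalytic subunits, the flavoprotein Sdha was higher in Ins than in Gcg cells, at 238 and 223 CPM against 168 and 169 (0.49 ± 0.110), and the iron-sulphur subunit Sdhb was not called. The call of Sdha in Sst over Gcg cells (−0.44 for Gcg against Sst) was lost in 6 of 8 cases, down to −0.16 without Sst library 1.

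In complex III, Uqcrq, a small quinone-binding accessory subunit, was at 283 and 294 CPM in Ins cells, 181 and 164 in Gcg cells, 145 and 164 in Sst cells and 144 and 133 in Ppy cells. Ins cells stood above all others, with 0.79 ± 0.107, 1.07 ± 0.155 and 1.12 ± 0.119 on the log2 scale (adjusted p = 9.51e-07, 6.41e-06 and 1.77e-08, edgeR). Uqcr11 was at 221 and 273 CPM in Ins cells and between 145 and 194 elsewhere (0.45, 0.63 and 0.77). Its call over Gcg cells was lost without Ins library 2 (0.27, adjusted p = 0.141, edgeR) or Gcg library 2 (0.38, adjusted p = 0.0941, edgeR), and that over Sst cells without Ins library 2 (0.47, adjusted p = 0.0612, edgeR) or Sst library 1 (0.64, adjusted p = 0.0605, edgeR). The Rieske iron-sulphur protein Uqcrfs1, the electron-carrying nuclear subunit listed, had 193 and 165 CPM in Ppy cells, 165 and 148 in Gcg cells, 124 and 123 in Ins cells and 112 and 93.9 in Sst cells. It was lower in Sst than in Ppy cells (−0.86 ± 0.189). Its call in Gcg over Sst cells (0.69 ± 0.185) was lost without Gcg library 1 or Sst library 2 (0.62 in both cases, adjusted p = 0.0633 and 0.0613, edgeR), and that in Ins against Ppy cells (−0.46) was lost without Ppy library 1 (−0.36, adjusted p = 0.099, edgeR). The core proteins Uqcrc1 and Uqcrc2 were not called. Uqcrh was lower in Ins than in Gcg cells (−0.30), which was lost without Ins library 1, Gcg library 1 or Gcg library 2 (−0.37 to −0.23, adjusted p = 0.0557 to 0.27, edgeR).

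Further genes of complex IV were called mainly between Ppy cells and the others, and few of these calls were kept. Cox7b, a small accessory subunit, was higher in Ins than in Ppy cells (0.56), and its call over Gcg cells (0.43) was lost without Gcg library 2 (0.39, adjusted p = 0.0829, edgeR). Cox5b in Ins over Ppy cells (0.67) was lost without Ppy library 2 (0.46, adjusted p = 0.0508, edgeR), and in Gcg over Ppy cells (0.51) without Gcg library 1, Gcg library 2 or Ppy library 2 (0.30 to 0.53, adjusted p = 0.0655 to 0.308, edgeR). Cox6c in Ins over Ppy cells (0.41) was lost without Ins library 1 or Ppy library 2 (0.34 in both cases, adjusted p = 0.0780 and 0.124, edgeR), and in Gcg over Ppy cells (0.50) without Gcg library 1 or Ppy library 2 (0.43 in both cases, adjusted p = 0.0727 and 0.0732, edgeR). The pseudogene Cox6c2 was called in Ins and in Gcg over Ppy cells (0.65 and 0.64), and both were lost without any 1 of the 4 sums compared (0.57 to 0.73, adjusted p = 0.0609 to 0.207, edgeR). Cox5a had 5.71 to 15.6 CPM in the 8 sums, and its call in Ins over Gcg cells (1.14) was likewise lost without any 1 of the 4 sums (0.94 to 1.38, adjusted p = 0.0522 to 0.211, edgeR). Cox5a overlaps Gm26631 on the other strand and shared 31.1% of its 70-base windows with it.

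The subunits of the ATP synthase went in several directions. Of the catalytic pair, Atp5b was called nowhere and Atp5a1 in Ins over Sst cells alone (0.33 ± 0.118), which was lost in 5 of the 8 cases, down to 0.25 without Sst library 2 (adjusted p = 0.233, edgeR). Atp5c1, the rotating central stalk, was at 113 and 114 CPM in Ins cells, 179 and 164 in Gcg cells, 167 and 104 in Sst cells and 172 and 164 in Ppy cells, and lower in Ins than in Gcg (−0.55 ± 0.126) and Ppy cells (−0.50 ± 0.135). Atp5e, the epsilon subunit of the same stalk, was at 288 and 357 CPM in Ins cells and 374 and 368 in Gcg cells, above 226 and 178 in Sst cells and 241 and 215 in Ppy cells. Gcg cells were higher than Sst and Ppy cells by 0.96 ± 0.156 and 0.72 ± 0.120, and its calls in Ins over Sst and over Ppy cells were kept as well. Atp5o, the peripheral stalk subunit that confers oligomycin sensitivity, was at 47.3 and 47.5 CPM in Ppy cells against 81.6 and 88.4 in Ins cells (0.90 ± 0.168) and 74.7 and 79.0 in Gcg cells (0.71 ± 0.169). The Gcg call was lost without Ppy library 2 (0.69, adjusted p = 0.0632, edgeR). Atp5k and Atp5j2, of the membrane part, were higher in Ins than in Ppy cells by 0.72 and 0.45. Atp5l was called in Ins over Sst cells (1.41), but not without Ins library 2 (1.34, adjusted p = 0.0558, edgeR) or Sst library 1 (0.84, adjusted p = 0.359, edgeR), and 76.1% of its 70-base windows were also in other genes. Atp5md in Gcg over Sst cells (0.89) was lost without Gcg library 2 or Sst library 2, at 0.84 and 0.53 (adjusted p = 0.0845 and 0.247, edgeR), and Atp5mpl in Gcg over Ppy cells (0.50) without any 1 of their 4 sums (0.43 to 0.57, adjusted p = 0.0656 to 0.119, edgeR).

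Of the 88 tested members, 26 were called in no comparison of the single-hormone groups. They included Atp5b, Cox6a1, Cox6b1, Cox8a, Ndufs1, Ndufs7, Sdhb, Uqcrc1 and Uqcrc2. Their values do not show that the groups were equal, since the standard errors leave room for small differences.

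Cells with a pair of hormones were compared with the 2 single-hormone groups of that pair. These groups depend on the hormone threshold of 1%. At 5%, 27 and 24 cells in libraries 1 and 2 carried both glucagon and pancreatic polypeptide. Cells with glucagon and pancreatic polypeptide, 65 and 86 in number, had nuclear shares of 1.06% and 1.11% and mitochondrial shares of 0.844% and 0.798%. The mitochondrial shares lay between those of Gcg and Ppy cells, and the nuclear share did so in library 1 but not in library 2. In a fit of 12 sums and 12986 genes, 0 members were called against Gcg cells, where 0.4% of all genes were called in either direction (3 members at an unadjusted p under 0.05, and 0 called by DESeq2). Against Ppy cells, 6 members (6.9%) were higher and 4 (4.6%) lower, beside 4.4% and 3.77% of all genes. The 4 were mt-Co1, mt-Cytb, mt-Nd4 and mt-Nd5, from −0.37 to −0.29, and the 6 were Atp5e, Atp5j2, Cox4i1, Cox7a2l, Ndufa2 and Ndufa6, from 0.35 to 0.53. Without library 2 of the cells with both hormones 1 member was called, and without Ppy library 2 there were 2. The calls of the 4 mitochondrial genes were each lost without that library 2 (−0.34 to −0.19, adjusted p = 0.0691 to 0.437, edgeR), and those of mt-Co1 and mt-Nd5 also without some of the other sums. Each of the 6 nuclear calls was lost without Ppy library 2 (0.31 to 0.49, adjusted p = 0.0711 to 0.274, edgeR).

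Cells with somatostatin and pancreatic polypeptide, 77 and 71 in number, had nuclear shares of 1.1% and 1.1% and mitochondrial shares of 0.501% and 0.500%, near those of Sst cells. At a hormone threshold of 5%, 8 and 5 cells carried both hormones. Cells with somatostatin alone then numbered 90 and 74, up from 35 and 23. Whether the cells with both hormones form a group apart from Sst cells was not tested. Against Sst cells 0 members were called, beside 0.0308% of all genes (4 members at an unadjusted p under 0.05, and 0 by DESeq2). Against Ppy cells 7 members (8.05%) were higher and 8 (9.2%) lower, beside 8.76% and 7.71% of all genes. The 8 were Sdhd (−1.1 ± 0.187) and 7 mitochondrial genes, from −1.35 for mt-Nd1 to −0.81 for mt-Cytb. The 7 were Cox7a2l, Ndufa4, Ndufa8, Ndufc1, Ndufc2, Ndufs6 and Ndufv1, from 0.42 to 0.69. Of these, Ndufc2, Ndufs6 and all 8 lower genes were kept, while Cox7a2l, Ndufa4, Ndufa8, Ndufc1 and Ndufv1 were lost without Ppy library 2 (0.27 to 0.55, adjusted p = 0.133 to 0.427, edgeR) and without further sums.

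Cells with no hormone at 1%, 91 and 92 in number, were a mixture, with summed endothelial markers at 6519 and 8362 CPM and leukocyte markers at 3630 and 3549. Their nuclear share was 1.42% and 1.39% and their mitochondrial share 1.08% and 1.09%. The median cell had 0.889% and 0.867% nuclear UMIs, below the summed share. The highest single cell had 13.4% mitochondrial members, and without the 5 highest cells of each library the mitochondrial share was 0.765% and 0.889%. Isoforms that were near 0 in the hormone groups were found there. Cox4i2 had 34 of its 38 UMIs in library 1 in these cells, in 4 cells that all had UMIs of Rgs5, a pericyte gene, and all of its 5 UMIs in library 2, in 1 cell that had Rgs5. Cox7a1 had 46 of 67 and 41 of 57 UMIs there, of which 21 and 32 came from a single cell. Of the 8 and 6 such cells with Cox7a1, 2 and 2 had Rgs5. Ndufa4l2 had 4 of 5 UMIs in 3 cells of library 1, all with Rgs5, and 0 UMIs in library 2. Cox6b2 had 7 of 17 and 10 of 30 UMIs in the cells with no hormone.

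The factors that make and maintain mitochondrial RNA and the factors that assemble the complexes were read from fixed lists. Of 20 genes for mitochondrial gene expression, 17 were tested. Between Ins and Gcg cells 0 were called higher in Ins cells (edgeR; 0 at an unadjusted p under 0.05 and 0 by DESeq2) and 3 (17.6%) in Gcg cells, beside 17.9% and 17.3% of all genes, so that the share higher in Gcg cells was near that of all genes. Ppargc1a, the coactivator of mitochondrial biogenesis, was at 6.64 and 7.58 CPM in Ins against 18.3 and 24.4 in Gcg cells (−1.54 ± 0.369), a call lost without Gcg library 2 (−1.32, adjusted p = 0.0815, edgeR). Lrpprc, which stabilises mitochondrial messenger RNA, was at 88.9 and 70.7 against 117 and 124 (−0.54), lost without Ins library 2 (−0.42, adjusted p = 0.0667, edgeR) or Gcg library 2 (−0.51, adjusted p = 0.0513, edgeR). The nuclear receptor Esrra was at 12.2 and 13.1 against 25.1 and 22.7 (−0.88), lost without any 1 of the 4 sums (−0.96 to −0.80, adjusted p = 0.0547 to 0.158, edgeR). The 1 call of the list that held throughout was that of Lrpprc in Gcg over Sst cells (1.03). Lrpprc in Sst against Ppy cells (−0.76) was lost without Sst library 2, Ppy library 1 or Ppy library 2 (−0.82 to −0.51, adjusted p = 0.0678 to 0.257, edgeR). Ppargc1a in Gcg over Sst cells (2.52) was lost without Gcg library 2 or Sst library 2 (2.33 and 1.83, adjusted p = 0.0805 and 0.0891, edgeR), and in Gcg over Ppy cells (1.78) without Gcg library 2 (1.56, adjusted p = 0.107, edgeR). Polg2, a subunit of the mitochondrial DNA polymerase, was the 1 gene called between Ins and Ppy cells (−0.97), down to −0.31 without Ppy library 2 (adjusted p = 0.726, edgeR). Between Ins and Sst cells 0 were called (edgeR; 1 at an unadjusted p under 0.05 and 0 by DESeq2). Tfam, which packages mitochondrial DNA, was at 37.4 to 52.2 CPM in the 8 sums and not called. The median of the list was −0.04, 0.46 and −0.00 for Ins against Gcg, Sst and Ppy cells, beside −0.02, 0.02 and 0.01 over all genes.

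Of 47 assembly factors and electron carriers, 44 were tested, and 9 (20.5%) were called higher in Ins than in Gcg cells and 0 lower, beside 17.9% and 17.3% of all genes. Against Sst cells 2 (4.55%) were higher and 1 (2.27%) lower, beside 10.4% and 9.19%, and against Ppy cells 7 (15.9%) were higher and 0 lower, beside 15.1% and 14.3%. The shares higher in Ins than in Gcg and Ppy cells were thus near those of all genes. At an unadjusted p under 0.05 the counts of 0 in both comparisons were also 0, as they were by DESeq2. Uqcc2, an assembly factor of complex III, was at 253 and 271 CPM in Ins cells, 152 and 156 in Gcg cells, 156 and 134 in Sst cells and 120 and 119 in Ppy cells. Both Ins sums stood above the other 6, by 0.81 ± 0.108, 0.99 ± 0.156 and 1.19 ± 0.121 over the 3 groups, and these calls were kept. Ndufaf3, for complex I, was also higher in Ins than in Gcg cells with the call kept. The other calls of Ins cells were each lost without at least 1 sum. Coa3, for complex IV, was called against all 3 groups (0.38, 0.59 and 0.45), but not against Gcg and Ppy cells without Ins library 2 (0.32 and 0.39, adjusted p = 0.104 and 0.0628, edgeR), nor against Sst cells without Sst library 2 (0.42, adjusted p = 0.176, edgeR). Over Gcg cells, Ndufaf4 (0.60) was lost without Gcg library 1 (0.56, adjusted p = 0.0798, edgeR), as were Ndufaf6 (1.03), Sdhaf2 (0.65), Sdhaf4 (0.53) and Uqcc3 (0.51), at 0.88, 0.61, 0.43 and 0.40 (adjusted p = 0.0682 to 0.238, edgeR). Surf1 (0.56) was lost without Ins library 1 (0.50, adjusted p = 0.0604, edgeR) or Gcg library 2 (0.47, adjusted p = 0.0923, edgeR). Over Ppy cells, Coa5 (0.50), Cox17 (0.47), Ndufaf3 (0.55) and Sdhaf2 (0.78) were lost without Ppy library 1 (0.45 to 0.60, adjusted p = 0.0598 to 0.156, edgeR) and Ecsit (0.77) without Ppy library 2 (0.65, adjusted p = 0.141, edgeR).

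Sdhaf4, a complex II factor, was highest in Sst cells, at 96.7 and 83.8 CPM against 38.4 and 48.4 in Ins cells (−0.92 ± 0.242), a call lost without Ins library 1 (−0.73, adjusted p = 0.0654, edgeR) or Sst library 1 (−0.79, adjusted p = 0.156, edgeR). It and Ndufaf3 were called lower in Gcg than in Sst cells, where 0 of the list were higher (edgeR; 1 at an unadjusted p under 0.05 and 0 by DESeq2), and the call of Sdhaf4 was kept while that of Ndufaf3 (−1.22) was lost without Sst library 1 (−0.75, adjusted p = 0.266, edgeR). Both were also called higher in Sst than in Ppy cells (0.83 and 0.85), where 0 were lower (edgeR; 1 at an unadjusted p under 0.05 and 0 by DESeq2), and both were lost without Sst library 1 (0.67 and 0.36, adjusted p = 0.278 and 0.654, edgeR). Between Gcg and Ppy cells Coa5 and Uqcc2 were called higher (0.54 and 0.38) and Sdhaf4 and Tmem126b lower (−0.63 and −0.75), and none of the 4 held without Gcg library 2 (0.44, 0.36, −0.73 and −0.77, adjusted p = 0.0686 to 0.238, edgeR). The median over the list was 0.14, 0.08 and 0.19 for Ins against Gcg, Sst and Ppy cells.

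Nuclear members are often described as sharing promoter elements, and RefSeq start sites (GRCm38.p6, 250 bases before to 50 after the start) were available for 68 of the 87. Letters were searched on both strands. GCGCATGC, the core of the site of NRF1, a regulator of respiratory genes, was in 10 of the 68 (14.7%) and in 824 of 27025 promoters of all genes (3.05%). CCGGAAG, as bound by factors of the ETS family, was in 17 (25%) and in 9.93% of all, and AAGATGG, as bound by YY1, in 11 (16.2%) and in 7.28% of all. The NRF1 letters were in Ndufa11 and Uqcr11 among 6 members with a promoter that were higher in Ins cells in all 3 comparisons, in Ndufa6, which was highest in Gcg cells, and in Cox6a1 and Uqcrc1, which were not called, so these letters went with no single pattern. Cox6a2 was not among the promoters. The 250 bases before the start of Ndufa11 are shown because it was higher in Ins cells throughout, with the site and its overlap on both strands in capitals.
Ndufa11 chr17:56717512-56717761 (+): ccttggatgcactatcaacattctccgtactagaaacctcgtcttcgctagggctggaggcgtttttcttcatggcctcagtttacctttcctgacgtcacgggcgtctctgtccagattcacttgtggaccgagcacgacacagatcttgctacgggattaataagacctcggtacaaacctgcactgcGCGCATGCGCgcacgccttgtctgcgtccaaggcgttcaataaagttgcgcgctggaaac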

How the data were processed

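Per the labels and the study's methods, the authors isolated islets with collagenase, dissociated them with trypsin and prepared both libraries with RevGel-seq from polyA RNA. The authors deposited 1 table of raw UMI counts per library, made with Cytonaut: cell barcodes were chosen by UMI-tools, reads were aligned to exons of GRCm38, deduplicated and assigned to genes. UMIs of introns are therefore absent, and barcodes below the depth threshold were not analysed here. Use of strand and of reads with several positions was not given in the sources used here.

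All cells had at least 200 genes and at most 20% mitochondrial UMIs, and 0 were removed. Scrublet (scanpy 1.11.5, Python 3.11.15) marked 16 cells as doublets, which were kept in the main values and left out in an alternative. No marked cell was in the 8 sums of the main fit. That alternative therefore repeated the main fit, and its counts among the alternatives could not differ. The groups were set from hormone UMIs and used no clustering. Counts were summed for each library and group, and the quasi-likelihood test of edgeR 4.0.16 (R 4.3.3; glmQLFit after filterByExpr, with TMM factors and Benjamini-Hochberg adjustment over all genes) was applied. The 8 sums left 4 residual degrees of freedom and a biological coefficient of variation of 8.77%. The test was also run on simulated counts, with their spread taken from the main fit. DESeq2 1.42.0 was an alternative, with other scalings, thresholds and cell filters. The 4 sums of a library share its preparation, but the correlation between groups of the library differences was −0.018 to 0.059 over 5931 genes, so no block was used in the main fit. Intervals and limits cover counting error only.

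Coordinates and transcripts came from GENCODE M21 (GRCm38), in which all 98 members were found, near copies were found with blastn 2.17.0, and promoters came from RefSeq. The members, lists and comparisons were chosen with earlier results of these data known. Genes named were every mitochondrial member, at most the 8 largest changes in each direction and comparison, fixed isoform families and catalytic subunits, and the called genes of 2 lists. The remaining named genes of the members (for example Ndufb9, Ndufb8, Cox6c and Atp5j2) were chosen after their values were seen. The values of 1 marker and 1 member are not reported here.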

Additional observations from a re-analysis of the deposited data

How the results depend on the processing

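Of the counts of members called under the alternatives, 173 stayed within 1.5 times the main count and 15 did not. Equal numbers of cells, 23 per sum, left 8 members for Ins against Gcg cells, 10 for Ins against Sst, 18 for Ins against Ppy, 8 for Gcg against Sst, 4 for Gcg against Ppy and 9 for Sst against Ppy cells, fewer cells being the construction of this alternative. A hormone threshold of 5% gave 37 for Ins against Sst cells, and DESeq2 gave 14 for Gcg against Ppy cells; the cause was not tested. Leaving out 1 sum gave 15 to 36, 15 to 22, 34 to 51, 11 to 14, 8 to 28 and 11 to 13 members in the 6 comparisons in that order, 1 to 10 for cells with glucagon and pancreatic polypeptide against Ppy cells, 10 to 15 for cells with somatostatin and pancreatic polypeptide against Ppy cells, and 0 for both against Gcg and Sst cells; leaving out sums in these last comparisons was chosen after seeing the data. The replicate block, with the library number as a term, gave 31, 21, 49, 14, 24 and 13 members in the 6 comparisons and changed no count by more than 1.5 times.

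Keeping hormone UMIs moved the log2 ratio of nuclear shares to −0.17 (Ins to Gcg), −0.43 (Ins to Sst) and 0.25 (Ins to Ppy) and of mitochondrial shares to −0.49, −0.0949 and −0.68. Median cells moved the mitochondrial ratios to −0.42, 0.13 and −1.0. Single libraries gave nuclear ratios of 0.11 to 0.19, 0.11 to 0.20 and 0.28 to 0.40 and mitochondrial ratios of −0.23 to −0.11, 0.41 to 0.56 and −0.62 to −0.55.

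Of 183 calls of single members, 96 fell below the threshold when some sum was left out and 57 under at least 1 other setting apart from equal cells. With equal cells 55 of 157 were kept, and 2 changed direction, Ndufa12 and Uqcr10 in Ins against Gcg cells (−0.011 and −0.17, adjusted p = 0.994 and 0.766, edgeR). Of 47 calls of mitochondrial members, 10 were lost with some sum left out and 2 under the other settings. DESeq2 kept 132 of the 183. The sums held 23 to 190 cells each.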
